A study of Mus musculus with 4 samples.

Results

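Corin and the natriuretic peptide genes are described here in mouse palatal mesenchyme at embryonic day 13.5 (E13.5), a set of 7 genes out of 22096 gene symbols in the deposited tables. They are Corin, the ligand genes Nppa, Nppb and Nppc, and the receptor genes Npr1, Npr2 and Npr3. Corin was chosen by its higher level in Foxf2-/- embryos than in each control, so its values in that comparison are given as a description without a test. The ligand and receptor genes were taken by name as the peptides and receptors of the same pathway.

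To follow the transcriptome after loss of Foxf2, a forkhead transcription factor of the palatal mesenchyme, the study dissected the palatal shelves of littermates and sorted RFP-positive cells. RNA was sequenced from 2 Foxf2-/-;Osr2RFP/+ embryos, 1 Foxf2+/-;Osr2RFP/+ embryo and 1 Osr2RFP/+ embryo, called Foxf2+/+ below. All 4 embryos carried the RFP reporter at the Osr2 locus, were at E13.5 and had a mixed background. The Foxf2 null allele is constitutive, so its loss was not limited to the palate, and RFP marks cells in which Osr2 is active. Each control genotype had 1 embryo, and a difference between the controls therefore had no replicate check. Levels are given in FPKM, which are reads scaled by transcript length and by the size of the library, added over the transcripts of a gene, and they can be compared between genes because they are per length. Read numbers are unknown, since the deposited files hold no counts, and the other libraries were 1.02 to 1.19 times as deep as that of Foxf2+/+ by the ratio of coverage to FPKM. Foxf2 itself had 85.4 FPKM in Foxf2+/+, 45.1 in Foxf2+/- and 1.41 and 2.28 in the Foxf2-/- embryos. The 11 palatal mesenchyme markers all reached 1 FPKM, while among 7 heart muscle markers Tnni3 was the single one to reach it and Myl2 and Nkx2-5 were at 0 in every embryo.

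Natriuretic peptides are made as precursors and cut into active hormones. Corin is a serine protease anchored in the cell membrane that cuts the precursor of atrial natriuretic peptide, the product of Nppa, while the precursor of C-type natriuretic peptide, the product of Nppc, is cut by furin. Npr1 and Npr2 are receptors with a built-in guanylate cyclase that makes the second messenger cGMP, and Npr3 clears the peptides. Atrial peptide and its receptor Npr1 are best known from the heart, kidney and vessels, and C-type peptide and Npr2 from the growth of bones that form through cartilage.

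Corin was low in both controls and several-fold higher in both Foxf2-/- embryos. It had 2.19 FPKM in Foxf2+/+, 2.35 in Foxf2+/-, 7.82 in Foxf2-/- embryo 1 and 7.92 in Foxf2-/- embryo 2. The groups did not overlap, and within each group the embryos were close together. The controls averaged 2.27 ± 0.111 FPKM (SD, n = 2) and the Foxf2-/- embryos 7.87 ± 0.0755 (SD, n = 2). On the log2(FPKM + 0.1) scale, the one used for all fold changes here, this was a log2 fold change of 1.75, or 3.36-fold. Taken singly, Corin was 3.47-fold higher than in Foxf2+/+ and 3.25-fold higher than in Foxf2+/-. The Foxf2+/- embryo was 1.07-fold above Foxf2+/+, and the Foxf2-/- embryos differed from each other by 1.01-fold. Corin was thus at nearly the same level in the 1 embryo of each control genotype, whereas Foxf2 itself was lower in the Foxf2+/- embryo. Of the 11128 genes tested, 3.26% were more than 1.5-fold apart between these embryos. The log2 difference between them had an SD of 0.279 over these genes, and it was 0.0959 for Corin. Whether losing 1 working copy of Foxf2 alters Corin was not tested.

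Corin ranked in the lower part of the expressed genes in the controls and nearer the middle in Foxf2-/-. Of 11128 genes with a mean of at least 1 FPKM over the 4 embryos, which were the genes tested, 9512 had a higher mean than Corin when the controls were averaged and 5018 when the Foxf2-/- embryos were. In fold change 13 of these genes stood above Corin, and 7 of them had both Foxf2-/- embryos above both controls and were more than 1.5-fold higher against each control. Corin was 1 of 79 genes that were more than 1.5-fold higher in the Foxf2-/- mean than in each control, which is 0.71% of the genes tested, beside 74 (0.665%) that were lower by the same rule. With samples scaled by the median of ratios this split was 91 higher and 49 lower, and with upper quartile scaling 90 and 53. Since this contrast chose Corin, nothing is read from these counts.

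**Figure D1:**
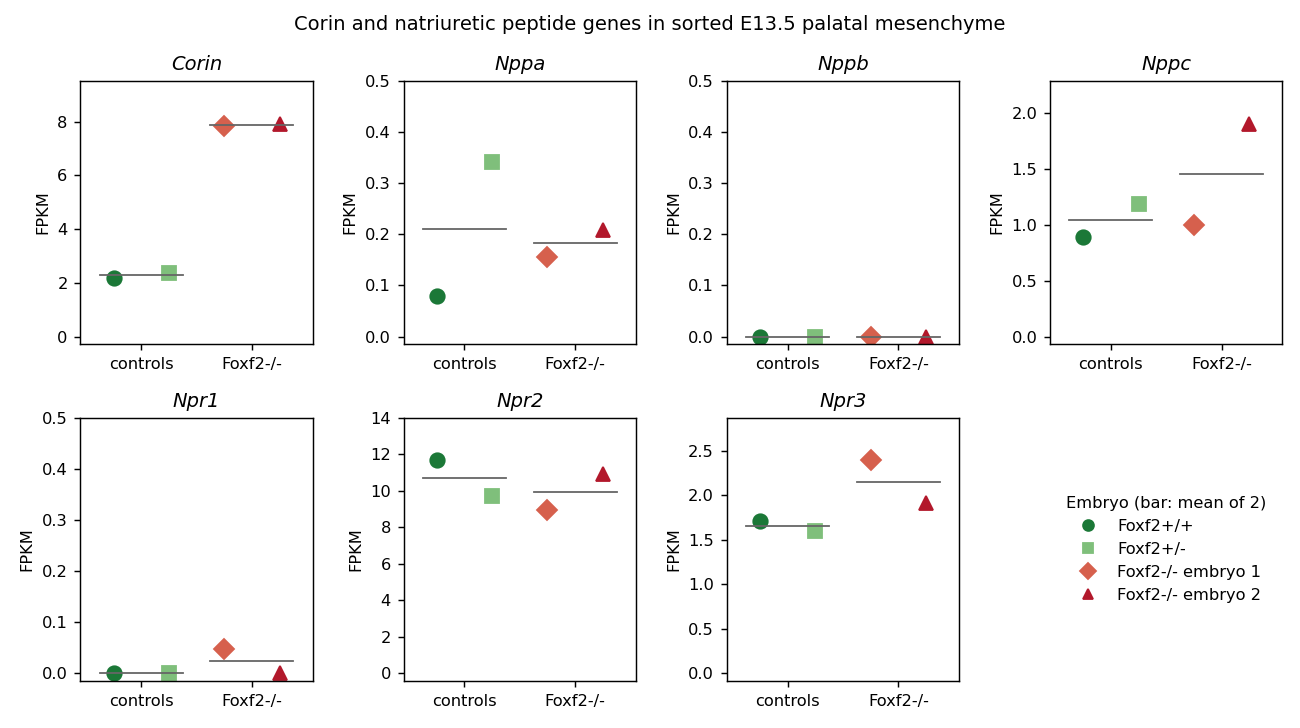
FPKM (vertical axes, 1 scale per gene) of the 7 genes in each embryo, with controls on the left and Foxf2-/- embryos on the right of each panel and a bar at the mean of 2 embryos. Corin lies at 2.19 and 2.35 FPKM among the controls and at 7.82 and 7.92 in Foxf2-/-, Npr2 lies between 8.95 and 11.7 in all embryos, and Nppa, Nppb and Npr1 stay below 0.5.

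The Corin gene lies on the minus strand at chr5:72691263-72895779 (mm9) and has 22 exons. The tables list 2 RefSeq transcripts of it, with different first exons whose start sites are 332 bases apart. NM_001122756, of 4706 bases, starts farther upstream, and its first exon (chr5:72895610-72895779, 170 bases) carries 69 coding bases. NM_016869, of 4863 bases, has a first exon of 327 bases (chr5:72895121-72895447) with 267 coding bases. The coding starts are shown because they are where the transcripts part. They are read from mm9 on the minus strand (chr5:72895610-72895678 and chr5:72895121-72895387), with the start codon in capitals.
Corin NM_001122756, coding part of exon 1: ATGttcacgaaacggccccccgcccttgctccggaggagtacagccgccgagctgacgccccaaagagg
Corin NM_016869, coding part of exon 1: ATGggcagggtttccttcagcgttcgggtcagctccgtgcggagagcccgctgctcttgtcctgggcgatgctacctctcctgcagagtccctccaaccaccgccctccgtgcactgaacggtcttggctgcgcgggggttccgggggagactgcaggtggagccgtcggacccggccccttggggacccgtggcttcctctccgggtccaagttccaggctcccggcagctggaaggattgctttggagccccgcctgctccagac

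Most of the Corin signal in every embryo was assigned to NM_001122756. Its level was 2.19 FPKM in Foxf2+/+, 2.02 in Foxf2+/-, 6.62 in Foxf2-/- embryo 1 and 6.49 in Foxf2-/- embryo 2. It was 3.01-fold higher in the Foxf2-/- embryos, and the groups did not overlap. NM_016869 had 0.000226, 0.327, 1.20 and 1.43 FPKM in the same order, again with both Foxf2-/- embryos above both controls. Its share of the gene was 0.0103% in Foxf2+/+, 13.9% in Foxf2+/-, 15.3% in Foxf2-/- embryo 1 and 18.1% in Foxf2-/- embryo 2. The Foxf2+/- embryo thus had a share close to those of the Foxf2-/- embryos while its total was close to that of Foxf2+/+. Reads in the exons that both transcripts share cannot be assigned to 1 of them directly, so the split is an estimate by the program that made the FPKM.

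Foxf2 belongs to the forkhead factors, which bind DNA at a short core, and the sequence before the upstream Corin start was searched on both strands for 4 spellings of that core. The first spelling was ACAAACA, while ATAAACA was taken as the second spelling, with GCAAACA used as the third one, and then also GTAAACA as the fourth. The 250 bases before the start of NM_001122756 (mm9, minus strand, chr5:72895780-72896029) are shown with the only match in capitals.
Corin upstream sequence: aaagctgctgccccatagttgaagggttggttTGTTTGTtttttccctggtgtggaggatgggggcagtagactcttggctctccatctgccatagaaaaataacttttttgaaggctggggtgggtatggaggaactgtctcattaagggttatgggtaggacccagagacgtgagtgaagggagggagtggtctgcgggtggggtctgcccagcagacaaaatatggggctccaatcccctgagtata
The match reads ACAAACA on the other strand and lies 218 to 212 bases before the start. Of 32851 RefSeq promoter windows of the same length and position (GRCm38.p6), 5143 or 15.7% held at least 1 of these spellings, and those of the other 6 genes held none. A match of 7 letters is a description of the sequence, and no binding was measured here.

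**Figure D2:**
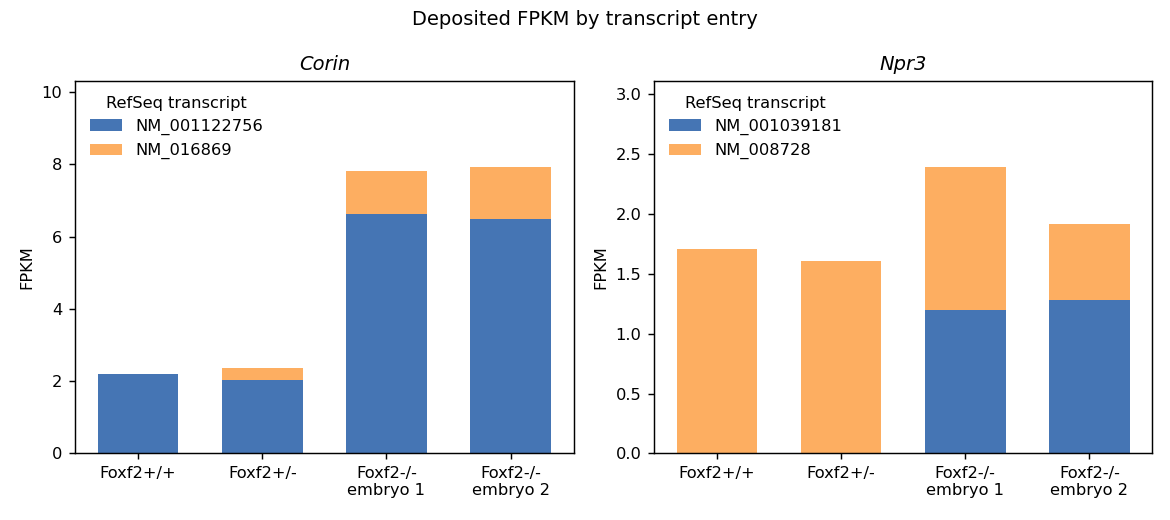
Stacked bars of the FPKM (vertical axis) that the deposited tables assign to each RefSeq transcript of Corin (left) and Npr3 (right) in the 4 embryos. The Corin bars are mostly NM_001122756, at 2.02 to 6.62 FPKM, and the Npr3 signal is nearly all NM_008728 in both controls, whereas 2 transcripts share it in both Foxf2-/- embryos.

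Among the ligands, Nppa and Nppb were scarcely detected and Nppc was low. Nppa, whose product is the best known substrate of corin, had 0.0790 FPKM in Foxf2+/+, 0.342 in Foxf2+/-, 0.156 in Foxf2-/- embryo 1 and 0.209 in Foxf2-/- embryo 2. The highest and the lowest value were both in controls, so the Foxf2-/- embryos lay inside the control range. Estimated coverage times transcript length gave 89.0, 457, 180 and 269 aligned bases for Nppa in the same order. Corin had 14021, 17917, 51416 and 58183 aligned bases, and its FPKM was 6.87 to 50.0 times that of Nppa. Nppa was below the mean of 1 FPKM asked for in the test and was not tested.

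Nppb, the gene of B-type natriuretic peptide, was listed at 0 in all 4 embryos. It lies on the plus strand of chromosome 4 (chr4:147359897-147361314), 13540 bases before Nppa (chr4:147374854-147376176). Both genes have 3 exons, and neither had 0.5 FPKM in any embryo.

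Nppc (chr1:88562867-88567148, minus strand, 3 exons), whose peptide acts through Npr2, was the only ligand gene at about 1 FPKM. It had 0.892 FPKM in Foxf2+/+, 1.18 in Foxf2+/-, 0.999 in Foxf2-/- embryo 1 and 1.90 in Foxf2-/- embryo 2. Foxf2-/- embryo 1 fell between the controls and embryo 2 above them, so the groups overlapped. The means were 1.04 ± 0.207 in the controls and 1.45 ± 0.639 in Foxf2-/- (SD, n = 2 each). In limma the log2 fold change was 0.39 (standard error 0.325, 95% interval -0.36 to 1.15, adjusted p = 0.641 over all genes tested), which spans 0.777-fold to 2.22-fold. The Foxf2-/- embryos differed from each other by 0.87 on the log2 scale. Of the genes tested, 342 or 3.07% were more than 1.5-fold apart between these 2 embryos, and among genes with a mean of 1 to 2 FPKM, as Nppc has, 161 of 1375 or 11.7% were. Without Foxf2-/- embryo 2 the log2 fold change of Nppc turned to -0.04.

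The receptors held the most abundant gene of the 7 and one at 0 in most embryos. Npr2, the receptor for C-type peptide (chr4:43644806-43664112, plus strand, 22 exons), had 11.7 FPKM in Foxf2+/+, 9.71 in Foxf2+/-, 8.95 in Foxf2-/- embryo 1 and 10.9 in Foxf2-/- embryo 2. The groups overlapped, with the highest value in Foxf2+/+ and the lowest in Foxf2-/- embryo 1. The means were 10.7 ± 1.39 in the controls and 9.93 ± 1.39 in Foxf2-/- (SD, n = 2 each). Its log2 fold change in limma was -0.11 (standard error 0.137, 95% interval -0.43 to 0.21, adjusted p = 0.779), so a change beyond 0.745-fold or 1.16-fold lay outside the interval. Without Foxf2+/+ it was 0.0258 and without Foxf2-/- embryo 1 it was 0.0361. Npr2 had a higher mean than 62.8% of the genes tested.

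Npr3, the clearance receptor (chr15:11769651-11835429, minus strand, 8 exons), had 1.71 FPKM in Foxf2+/+, 1.60 in Foxf2+/-, 2.39 in Foxf2-/- embryo 1 and 1.91 in Foxf2-/- embryo 2. Both Foxf2-/- embryos were above both controls. Of the genes tested, 1100 or 9.88% had this order, and 20.9% had it after median of ratios scaling. The means were 1.65 ± 0.0728 and 2.15 ± 0.338 (SD, n = 2 each), 1.24-fold above Foxf2+/+ and 1.32-fold above Foxf2+/-. In limma the log2 fold change was 0.35 (standard error 0.186, 95% interval -0.08 to 0.79, adjusted p = 0.468), which did not pass.

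The transcripts of Npr3 split differently from its total. NM_008728, of 6926 bases, had 1.70 FPKM in Foxf2+/+, 1.60 in Foxf2+/-, 1.20 in Foxf2-/- embryo 1 and 0.636 in Foxf2-/- embryo 2. NM_001039181, of 6923 bases, had 0.00161, 0.00170, 1.20 and 1.28 FPKM in the same order. Its share of the gene was 0.0942% in Foxf2+/+, 0.106% in Foxf2+/-, 50.0% in Foxf2-/- embryo 1 and 66.8% in Foxf2-/- embryo 2, so the groups did not overlap for either transcript. The transcripts lie in the same locus and differ in length by 3 bases, so few reads can tell them apart, and the 2 estimates were not tested singly. With the transcript of the highest mean in place of the sum, the log2 fold change of Npr3 was -0.84.

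Npr1, the receptor for atrial and B-type peptide (chr3:90254513-90269788, minus strand, 22 exons), was listed at 0 in both controls and in Foxf2-/- embryo 2. Foxf2-/- embryo 1 had 0.0473 FPKM, from 267 aligned bases.

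In level, the order of the set in the controls was Npr2, then Corin, Npr3 and Nppc, and last Nppa, Npr1 and Nppb. In Foxf2+/+ and Foxf2+/- the Npr2 level was 5.32 and 4.13 times that of Corin, and in the Foxf2-/- embryos 1.14 and 1.38 times. The Corin level was 1.29 and 1.47 times that of Npr3 in the controls, and 3.27 and 4.14 times in Foxf2-/- embryos 1 and 2. These ratios moved with Corin, whose change chose it. Npr2 was 6.84 and 6.05 times as high as Npr3 in Foxf2+/+ and Foxf2+/-, and 3.74 and 5.70 times in Foxf2-/- embryos 1 and 2, both below the controls. It was 5.74 to 13.1 times as high as Nppc, with overlap between the groups. Nppc and Npr3 were neighbours in the order, and the highest Nppc value, in Foxf2-/- embryo 2, was within the range of Npr3 over the 4 embryos.

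**Figure D3:**
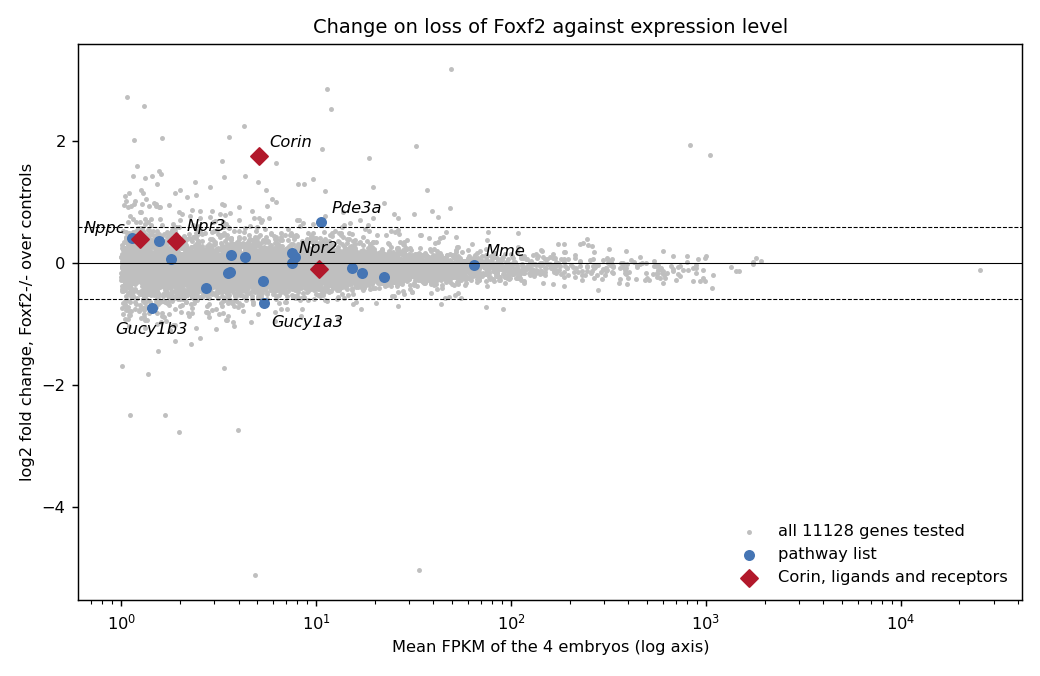
log2 fold change of Foxf2-/- over controls (vertical axis) against the mean FPKM of the 4 embryos (horizontal, log axis) for the 11128 genes tested, with 4 of the 7 genes as red diamonds, the pathway list in blue and dashed lines at a 1.5-fold change. Corin is at 1.75, while Nppc (0.39), Npr3 (0.35) and Npr2 (-0.11) lie between the dashed lines.

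Of the 7 genes, 4 had a mean of at least 1 FPKM and were tested (Corin, Nppc, Npr2 and Npr3). Among the 3 of these taken by name, 0 passed the limma call (more than 1.5-fold, with a Benjamini-Hochberg adjusted p under 0.05) and 0 were more than 1.5-fold from each control. Over all genes tested the limma call took 7 genes or 0.0629%, 1457 genes had an unadjusted p under 0.05, and the median log2 fold change was -0.08. Between the controls, which are of different genotypes, 363 genes or 3.26% were more than 1.5-fold apart. With 2 embryos against 2 an exact permutation test of 1 gene cannot give a p below 0.333, so the p-values here rest on the spread that limma shares across genes.

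The wider pathway was described with a list of 44 genes for peptide processing, peptide breakdown and cGMP signalling. All 44 were in the tables, 19 had a mean of at least 1 FPKM, 25 were below 1 FPKM in every embryo and 5 of these were at 0. No gene of the 19 passed the limma call, with a lowest adjusted p of 0.0984. More than 1.5-fold from each control were 1 gene upward (Pde3a) and 1 downward (Gucy1b3), against 0.71% and 0.665% of all genes tested. Both Foxf2-/- embryos were above both controls for 4 of the 19 genes and below them for 7, where 9.88% and 35.8% of all genes tested had these orders. After median of ratios scaling the counts were 4 and 5, and the orders upward and downward then held for 20.9% and 21.5% of all genes tested. The median log2 fold change of the 19 genes was -0.04.

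The 4 convertase genes on the list, for proteases that cut protein and peptide precursors, all had a mean of at least 1 FPKM. Furin, which cuts the precursors of B-type and C-type peptide, had 7.75 FPKM in Foxf2+/+, 7.22 in Foxf2+/-, 6.94 in Foxf2-/- embryo 1 and 8.03 in Foxf2-/- embryo 2, with the control values inside the Foxf2-/- range (adjusted p = 0.994, limma). The related convertases Pcsk5, Pcsk6 and Pcsk7 averaged 7.12, 4.17 and 3.48 FPKM over the controls and 8.01, 4.47 and 3.83 over Foxf2-/-. Their lowest adjusted p in limma was 0.527. Mme, the gene of neprilysin, a membrane protease that degrades natriuretic and other peptides, was the most abundant gene of the list. It had 72.1, 59.8, 61.4 and 66.4 FPKM in Foxf2+/+, Foxf2+/- and Foxf2-/- embryos 1 and 2, and the control values spanned those of the Foxf2-/- embryos (adjusted p = 0.909, limma). Mme was 6.08 to 6.86 times as high as Npr2 in the same embryos. Ide, the insulin-degrading enzyme, averaged 7.53 FPKM in the controls and 8.08 in Foxf2-/-. Ostn, whose product osteocrin also binds Npr3, did not exceed 0.0924 FPKM.

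Soluble guanylate cyclase makes cGMP on nitric oxide and not on a peptide. Of its 3 tested genes, 2 had lower values in both Foxf2-/- embryos than in both controls, an order that 35.8% of all genes tested had. Of the 3 genes, 0 passed the limma call. Gucy1a3, the alpha subunit of this cyclase, had 7.57 FPKM in Foxf2+/+, 5.72 in Foxf2+/-, 3.91 in Foxf2-/- embryo 1 and 4.35 in Foxf2-/- embryo 2. Both Foxf2-/- embryos were below both controls, at 0.632-fold on average (adjusted p = 0.210, limma), and the Foxf2+/- embryo lay between Foxf2+/+ and Foxf2-/-. Gucy1b3, its beta subunit, had 1.98, 1.68, 0.971 and 1.13 FPKM in the same order, with the same arrangement of the embryos and a mean of 0.597-fold (adjusted p = 0.287, limma). Gucy1a2, another alpha subunit, averaged 1.76 FPKM in the controls and 1.84 in Foxf2-/-, with overlap between the groups. Myh11, a smooth muscle marker, had values in the same direction as Gucy1a3 and Gucy1b3, at 1.13 FPKM in Foxf2+/+, 0.840 in Foxf2+/-, 0.364 in Foxf2-/- embryo 1 and 0.443 in Foxf2-/- embryo 2, whereas Acta2, another, averaged 2.94 FPKM in the controls and 3.64 in Foxf2-/-. The part of smooth muscle cells in the guanylate cyclase values was not tested. The 3 nitric oxide synthase genes were below 1 FPKM everywhere.

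Downstream of cGMP, the kinases, phosphodiesterases and kinase substrates that were tested all missed the limma threshold. Pde3a, a phosphodiesterase that degrades cAMP and is inhibited by cGMP, had 7.84 FPKM in Foxf2+/+, 8.44 in Foxf2+/-, 12.6 in Foxf2-/- embryo 1 and 13.4 in Foxf2-/- embryo 2. The groups did not overlap, and Pde3a was 1.65-fold and 1.53-fold higher than in Foxf2+/+ and Foxf2+/-, but it missed the threshold (adjusted p = 0.0984, limma). Prkg1, the main cGMP-dependent kinase, averaged 15.7 FPKM in the controls and 14.8 in Foxf2-/- (adjusted p = 0.776, limma), and Prkg2, the kinase that acts downstream of Npr2 in growth plate cartilage, 0.973 and 1.31 (adjusted p = 0.522). The other tested genes with phosphodiesterase names averaged 3.12 FPKM in controls and 2.35 in Foxf2-/- for Pde1a, and 3.75 and 3.35 for Pde3b. In the same order, the means were 5.87 and 4.75 for Pde5a, 18.1 and 16.2 for Pde6d and 1.36 and 1.75 for Pde9a. No enzyme activity was measured, so these levels do not give the capacity to degrade cGMP. The kinase substrates Vasp and Ppp1r12a averaged 3.76 and 24.1 FPKM over the controls and 3.43 and 20.5 over Foxf2-/-. Of these genes Pde3b, Pde5a, Pde1a, Pde6d and Ppp1r12a had both Foxf2-/- embryos below both controls, with a lowest adjusted p of 0.355 in limma. Over all genes tested 35.8% had this order, and 21.5% had it after median of ratios scaling, so nothing is read from it. The 6 genes of cGMP-gated channels were below 1 FPKM in every embryo.

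**Figure D4:**
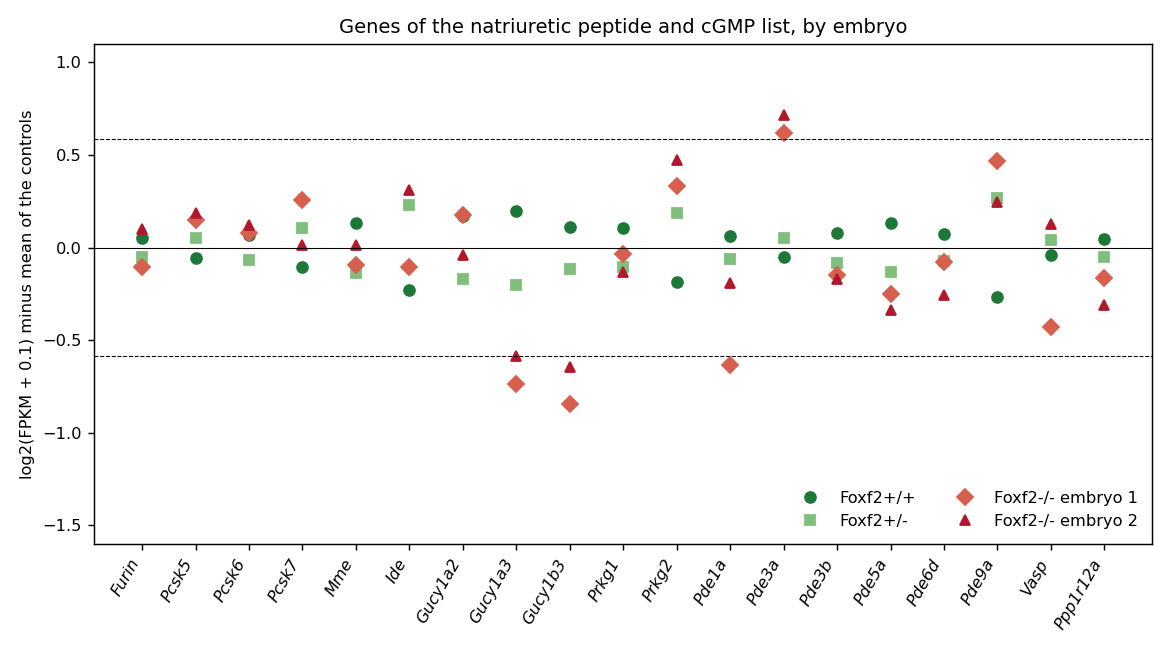
log2(FPKM + 0.1) of each embryo minus the mean of the controls (vertical axis) for the 19 genes of the pathway list that were tested, with dashed lines at a 1.5-fold change. Both Foxf2-/- embryos lie above the upper line for Pde3a and at or below the lower line for Gucy1a3 and Gucy1b3, and most other genes lie between the lines in every embryo.

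None of the relatives of Corin was expressed at its level. Of 20 symbols for other membrane-anchored serine proteases of its type, 17 were in the tables, all 17 were below 1 FPKM in every embryo, and 8 were at 0 throughout. The highest was Tmprss7, with 0.324 FPKM in Foxf2+/+, 0.249 in Foxf2+/-, 0.0433 in Foxf2-/- embryo 1 and 0.0128 in Foxf2-/- embryo 2. Its Foxf2-/- values were below its control values, opposite to Corin, at levels too low for the test. Tmprss9 (0.0748, 0.0329, 0.238 and 0.113 FPKM in the same order) and Tmprss13 (0.0666, 0.0494, 0.103 and 0.0987) went the other way. They were also too low for the test. Without a filter on level, 11.9% of all genes had both Foxf2-/- embryos above both controls and 28.8% below.

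The genes whose pattern over the 4 embryos was most like that of Corin were found by the Euclidean distance of log2(FPKM + 0.1) centred on each gene's mean. The nearest 8 were Lrrtm4 (distance 0.229), Tbx15 (0.251), Pthlh (0.347), Kirrel3 (0.405), Creb5 (0.431), Lmo3 (0.463), Mgst1 (0.519) and Bnc1 (0.537). Lrrtm4, a synaptic adhesion protein, had 0.537, 0.565, 1.70 and 2.03 FPKM in Foxf2+/+, Foxf2+/- and Foxf2-/- embryos 1 and 2. Tbx15, a T-box transcription factor, had 7.49, 10.0, 30.0 and 27.4 FPKM in the same order. In Pthlh, which encodes parathyroid hormone-related protein, the values were 0.808, 0.712, 2.13 and 2.59 FPKM. All 8 genes were higher in both Foxf2-/- embryos than in both controls, which the measure itself selects for. Among the 11128 genes tested, Corin aside, Npr3 ranked 302nd and Nppc 478th by this distance, and Npr2 ranked 6646th. The distance depends largely on the change that chose Corin, and for Nppc the groups overlapped, so no shared regulation is read from these ranks.

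**Figure D5:**
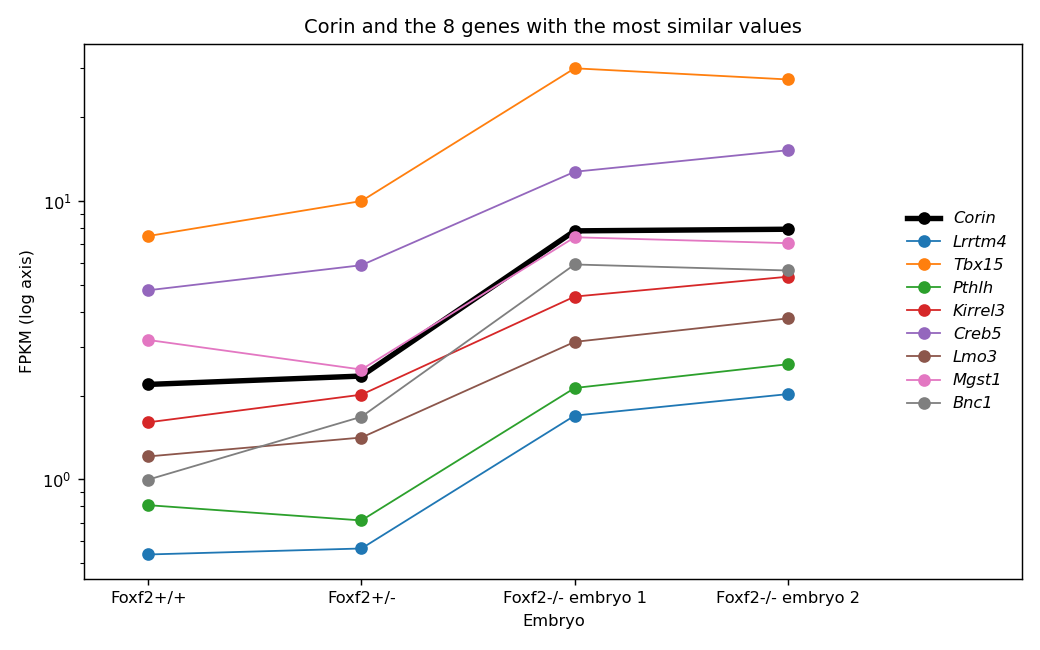
FPKM (vertical, log axis) of Corin and the 8 genes nearest to it in pattern, in the 4 embryos on the horizontal axis, with a line joining the values of each gene. Corin is the black line at 2.19 to 7.92 FPKM, and the other lines range from Lrrtm4 at 0.537 to Tbx15 at 30.0.

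Markers of other cell types were set beside these values, since fewer cells of a type and less RNA per cell cannot be told apart in bulk samples. The summed level of 8 endothelial markers was 1.72 to 2.50 FPKM in the controls and 2.16 to 2.80 in Foxf2-/-, most of it from Erg, the only one to reach 1 FPKM. Erg was lower in both Foxf2-/- embryos than in both controls, at 0.816-fold on average. Below 1 FPKM, Cdh5, Kdr and Emcn were each higher in both Foxf2-/- embryos than in both controls. Their means were 2.01-fold, 1.64-fold and 3.35-fold, and each was more than 1.5-fold higher against each control, with Emcn at 0 in Foxf2+/+. Pecam1, Tek, Tie1 and Sox17 did not have this order. Without a filter on level, 11.9% of 17145 genes had this order. More than 1.5-fold higher against each control were 345 of these 17145 genes. The 4 smooth muscle markers, of which 2 reached 1 FPKM, summed to 4.23 to 4.85 FPKM in the controls and 4.59 to 5.16 in Foxf2-/-, with Myh11 at 0.467-fold and Acta2 at 1.23-fold.

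The 6 nerve and glia markers, of which 2 reached 1 FPKM, summed to 3.27 and 5.26 FPKM in Foxf2+/+ and Foxf2+/- and to 5.41 and 5.82 in Foxf2-/- embryos 1 and 2, and Sox10 was 2.04-fold higher. The 10 epithelial markers, 5 of which reached 1 FPKM, summed to 7.58 to 8.82 FPKM in the controls and 8.98 to 9.58 in Foxf2-/-. For both lists the sums of the Foxf2-/- embryos, like the values of Corin and Npr3, were above those of the controls. The 5 skeletal muscle markers were all below 1 FPKM, with Myog at 0, and summed to 0.251 to 0.302 FPKM in the controls and 0.104 to 0.206 in Foxf2-/-. The sums overlapped between the groups for 7 heart muscle markers (2.14 to 2.34 and 2.10 to 2.73 FPKM) and for 5 macrophage markers, 2 of which reached 1 FPKM (6.40 to 8.38 and 6.92 to 9.66). The 5 blood markers, 4 of which reached 1 FPKM, summed to 169 FPKM in Foxf2+/+, 1096 in Foxf2+/-, 891 in Foxf2-/- embryo 1 and 2344 in Foxf2-/- embryo 2. The part of these other cells in the levels of Corin, the ligands, the receptors or the pathway genes was not tested.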

How the data were processed

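RNA-seq values were analysed for 4 E13.5 embryos, 2 Foxf2-/- and 2 controls. Per the study's methods, Nextera libraries were sequenced as single-end Illumina reads and aligned to mm9 with Tophat and Bowtie (0.12.7 in the submitters' processing notes). The authors deposited 1 table per embryo with the FPKM of 28107 RefSeq transcripts, in a form that Cufflinks writes, and the version and options of that step are not given in the sources used here. The deposited coverage is the signal used for aligned bases and relative depth. Depth in reads is unknown, so no counting interval is given.

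Transcripts were summed by symbol where they had 200 bases or more and status OK in every embryo. This left out 319 transcripts for their status, 801 shorter ones and 10 genes with a failed estimate, and kept 21282 genes. The 11128 genes with a mean of at least 1 FPKM were tested as log2(FPKM + 0.1) with limma 3.58.1 (variance trend) in R 4.3.3. Benjamini-Hochberg adjustment was over all genes tested, and the script was tested on simulated data. Python 3.11.15, pandas 2.3.3 and numpy 2.4.6 served for the tables. Exons came from the annotation of mm9 and promoter windows from RefSeq.

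The genes named were the 7 genes, the genes of the pathway list and of the relatives of Corin with a mean of at least 1 FPKM, the 8 genes nearest to Corin in pattern, Foxf2, and markers where they touch a result. Tmprss7 was added after its values were seen, as the highest of its list. Tmprss9 and Tmprss13 were also added after their values were seen, for having both Foxf2-/- embryos above both controls. Members and lists were chosen with earlier results of these data known. Alternatives varied the pseudocount, filter, transcripts summed, scaling, fold threshold, limma design and embryos included.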

Additional observations from a re-analysis of the deposited data

How the results depend on the processing

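The log2 fold change of Corin, 1.75, was 1.44 with a pseudocount of 1, 1.59 with the highest transcript in place of the sum, 1.83 and 1.82 under median of ratios and upper quartile scaling, and 1.94 with null alleles as a linear term. Leaving out 1 embryo gave 1.70 to 1.80. The limma call over all genes took 7 genes, and 13 with a pseudocount of 1, 0 without a filter (1776 at an unadjusted p under 0.05), 26 with all transcript lengths, 1 with the highest transcript, 13 and 14 under the 2 scalings, 2 without a variance trend, 19 with a mean for each genotype and 18 with the linear term, where the cause was not tested. Without 1 embryo it took 7 to 38, the 38 without Foxf2+/-. The criterion of more than 1.5-fold against each control took 153 genes, and 65 with a pseudocount of 1, 638 without a filter, 47 with an FPKM of at least 5 in 1 embryo, 280 with all lengths, 274 with the highest transcript, 33 at 2-fold and 210 to 566 without 1 embryo, the 566 without Foxf2+/-, when 1 control is left to pass. In the pathway list 2 genes met it, and 0 with a pseudocount of 1 or at 2-fold, 1 with the FPKM filter, the highest transcript or median of ratios scaling, and 1 to 5 without 1 embryo, the 5 without Foxf2+/-. In the relatives of Corin 0 met it, and 2 without a filter.

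Of 321 values for 24 ligand, receptor and pathway genes under 15 alternatives, 0 passed the limma call and 19, in 9 genes, changed sign. Npr3 turned to -0.84 with the highest transcript. Under median of ratios and upper quartile scaling Furin turned to 0.0764 and 0.0679 and Mme to 0.0406 and 0.0321, and Gucy1a2 turned to -0.0527 with the linear term. Without 1 embryo the ranges across 0 were -0.0384 to 0.83 for Nppc, -0.25 to 0.0361 for Npr2, -0.11 to 0.10 for Furin, -0.17 to 0.0949 for Mme, -0.13 to 0.33 for Ide, -0.11 to 0.24 for Gucy1a2, -0.19 to 0.0207 for Prkg1 and -0.43 to 0.13 for Vasp. Npr2 turned without Foxf2+/+ or Foxf2-/- embryo 1, and Nppc without Foxf2-/- embryo 2. No paired analysis was possible because each control genotype had 1 embryo and the controls carry no replicate numbers. Depth in reads is unknown, so how far it limits Nppa, Nppb and Npr1 cannot be given as an interval.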
